A study of Homo sapiens with 4 samples.

Results

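CBFB and its partners RUNX1, RUNX2 and RUNX3 are the genes of the core-binding factor, and these 4 gene names out of the 26485 in the deposited tables are described here. CBFB was chosen on its measured levels in these same libraries, as a gene of a block on chromosome 16 that was expressed in SW1736 wt only, and the 3 RUNX genes were added as its partners by gene name. The levels of CBFB that follow are therefore a description of what chose it. By that choice, CBFB mRNA was abundant in SW1736 wt, was present as a trace in SW1736-PTX and was listed at 0 in both 8505C libraries.

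SW1736 and 8505C are established human cell lines derived from anaplastic thyroid cancer (ATC), an undifferentiated tumor of the thyroid. Wild-type (wt) cells received no drug. PTX cells of each line were selected over 6 months with paclitaxel, a taxane that stabilizes microtubules, rising from a dose of 1 nM to 1.5 µM, and were afterwards grown with the drug at 1.5 µM. One mRNA library was sequenced per condition, 4 in all, so the spread between cultures is unknown, no p-value was computed, and selection with the drug cannot be told apart from any other difference between 2 cultures.

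Core-binding factor is a transcription factor of 2 subunits. A RUNX protein binds DNA through its Runt domain, and CBFβ, the product of CBFB, does not touch DNA itself but raises the affinity of the Runt domain for its site and protects the RUNX protein from degradation. RUNX1 is known as a master regulator of blood stem cells, RUNX2 of osteoblasts and chondrocytes, and RUNX3 of T lymphocytes and sensory neurons, and all 3 are also expressed in epithelia and carcinomas.

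The libraries held between 43.5 and 57.9 M aligned reads, and between 8485 and 10379 gene names were listed at 0. The library labelled SW1736-PTX resembled the 8505C libraries more than it did SW1736 wt. Over 14692 expressed genes, its log2(FPKM + 0.1) values had an r of 0.767 with SW1736 wt, 0.873 with 8505C wt and 0.933 with 8505C-PTX, given here as a description across genes, which are not independent. 8505C-PTX was likewise closer to SW1736-PTX than to 8505C wt (r of 0.877), and the untreated lines had an r of 0.845. Of 148 genes above 5 FPKM in 8505C wt and below 0.5 in SW1736 wt, 132 (89.2%) were above 1 FPKM in SW1736-PTX. Of 145 genes above 5 FPKM in SW1736 wt and below 0.5 in 8505C wt, 40 (27.6%) were. The part of the drug and of the identity of this culture in any SW1736 difference was not tested. For the members and for each gene list, the comparison of the untreated lines is given as well.

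Of the thyroid markers, TSHR and SLC5A5 (the thyrotropin receptor and the iodide transporter) were listed at 0 in all 4 libraries, and the transcription factors were split between them. PAX8 had 38.2 FPKM (fragments scaled to gene length and to sequencing depth) in SW1736 wt and between 0.123 and 0.206 in the other libraries, and FOXE1 had 26.6 against 0.0443 to 0.511. NKX2-1, in contrast, was listed at 0 in SW1736 wt and had between 30.5 and 39.0 FPKM elsewhere. Of the 6 blood markers 1 or 2 were above 0.5 FPKM per library, CD14 in each and HBB in 8505C-PTX, with a summed level between 0.913 and 5.06 FPKM, while PTPRC, the pan-leukocyte marker, did not reach 0.5 FPKM in any library. None of the 5 bone and cartilage markers was above 0.5 FPKM, and of the 4 epithelial markers only KRT8 and KRT18 were.

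CBFB lies on chromosome 16 (hg38, 67029147 to 67101055, plus strand). SW1736 wt had 23.1 FPKM of CBFB and SW1736-PTX 0.0393, and it was listed at 0 in 8505C wt and in 8505C-PTX. The trace in SW1736-PTX corresponds to 7 reads on the 3103 bp main transcript, against 3487 in SW1736 wt. SW1736-PTX therefore held 0.170% of the SW1736 wt level, a 587-fold lower value with a 95% interval of 286 to 1467 from counting error only. The deposited data give no counts, but the listed 0 of the 8505C libraries may stand for a count of 0. The floor of 3 reads used here is then 0.0222 FPKM in wt and 0.0180 FPKM in PTX cells. The exact 95% interval of such a count reaches 3.69 reads, or 0.0273 FPKM in wt and 0.0222 FPKM in PTX cells.

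The log2 fold change of PTX over wt cells was taken on FPKM + 0.1, a scale on which the change of a gene near 0 is set by the added 0.1. Genes above 0.5 FPKM in either library of a pair were compared, and a gene was called when this log2 fold change was beyond 1.5. CBFB fell by 7.38 in SW1736, and it was not compared in 8505C because neither library reached 0.5 FPKM. Between the untreated lines, it was lower in 8505C wt than in SW1736 wt by a log2 difference of -7.86. The culture with CBFB thus stood alone, and untreated 8505C cells were listed at 0 as their PTX cells were.

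RUNX1 (chromosome 21, 34787801 to 35049298, minus strand), the partner best known from leukemia, was expressed in every library. SW1736 wt had 19.2 FPKM of RUNX1, SW1736-PTX 4.45, 8505C wt 9.80 and 8505C-PTX 12.1. SW1736 wt was highest and SW1736-PTX lowest, with both 8505C libraries between them. RUNX1 fell in SW1736 with a log2 fold change of -2.08, a level 4.31-fold lower (95% counting interval 3.82 to 4.65). In 8505C its log2 fold change of 0.30 was not called, and the ratio of PTX to wt was 1.23 (1.12 to 1.34). The log2 difference of 8505C wt from SW1736 wt was -0.96, also within the limits.

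RUNX2 (chromosome 6, 45328317 to 45551082, plus strand), the bone regulator, was by FPKM the lowest RUNX gene in 3 libraries and was above 0 in all 4. SW1736 wt had 6.12 FPKM of RUNX2, SW1736-PTX 1.70, 8505C wt 0.390 and 8505C-PTX 1.95. The untreated lines held the extremes, and the PTX libraries lay close together between them. RUNX2 fell in SW1736 with a log2 fold change of -1.79 (3.60-fold lower, counting interval 3.23 to 3.96) and rose in 8505C with 2.07 (5.00-fold higher, 4.02 to 6.45). 8505C wt was below SW1736 wt by a log2 difference of -3.66, or 15.7-fold (12.9 to 20.2). Between the PTX libraries the ratio was 1.15 (0.997 to 1.28), within counting error. The calls of RUNX2 in both lines were lost with 1 in place of 0.1 added to the FPKM, at -1.40 and 1.09.

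RUNX3 (chromosome 1, 24899511 to 24965010, minus strand), the T-cell regulator, had the reverse pattern to CBFB. SW1736 wt listed it at 0, while SW1736-PTX had 19.3 FPKM, 8505C wt 10.9 and 8505C-PTX 27.5. If the listed 0 stands for a count of 0, it allows up to 0.0144 FPKM in SW1736 wt, and the 3 other libraries were all above this. RUNX3 rose in SW1736 with a log2 fold change of 7.60. Untreated 8505C cells also stood above SW1736 wt, by a log2 difference of 6.79, and neither value is a bound because the lower library was at 0. In 8505C the log2 fold change of 1.32 was not called, at a ratio of 2.52 (counting interval 2.39 to 2.65). SW1736-PTX and 8505C wt, which differ in line and in drug, were 0.82 apart on the log2 scale, and the PTX libraries 0.51.

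**Figure D1:**
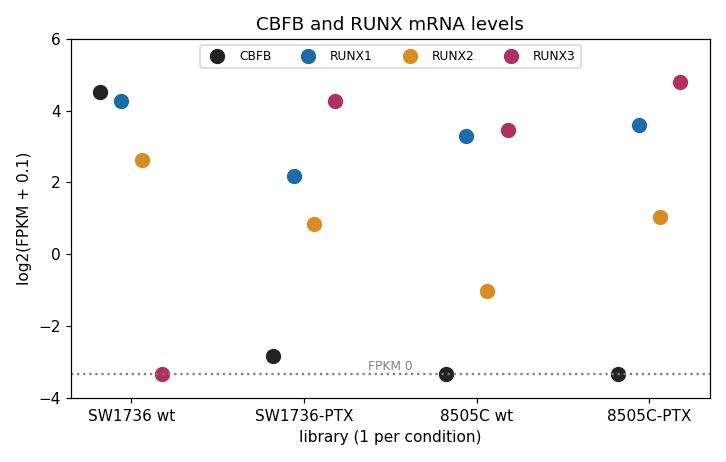
mRNA level of CBFB, RUNX1, RUNX2 and RUNX3 as log2(FPKM + 0.1) in each of the 4 libraries, 1 point per gene and library, with the dotted line at an FPKM of 0. CBFB is high in SW1736 wt (23.1 FPKM) and on or near the line elsewhere, whereas RUNX3 is on the line in SW1736 wt and between 10.9 and 27.5 FPKM in the other libraries.

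Of the 4 members, 1 was called higher and 3 lower in SW1736-PTX, and among all 14202 genes compared 15.7% were called higher and 10.2% lower. In 8505C, 1 of 3 members compared was called higher and 0 lower, beside 15.0% and 5.89% of 13794 genes. Between the untreated lines, RUNX3 was called higher in 8505C wt and CBFB and RUNX2 lower, beside 7.73% and 9.92% of 13457 genes. CBFB was chosen on these contrasts, so nothing is read from its counts. The median log2 fold change of all genes compared was 0.01 in SW1736, 0.11 in 8505C and -0.08 between the untreated lines.

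By FPKM, the summed level of the RUNX genes varied less than that of any member. SW1736 wt had a sum of 25.3 FPKM, SW1736-PTX 25.5, 8505C wt 21.1 and 8505C-PTX 41.6. The sum was 1.10 times the CBFB level in SW1736 wt and 649 times in SW1736-PTX. The shares of the sum differed between the SW1736 libraries. RUNX3 made 0% of the sum in SW1736 wt and 75.8% in SW1736-PTX, while RUNX1 went from 75.8% to 17.5% and RUNX2 from 24.2% to 6.68%. In 8505C, RUNX3 made 51.8% of the sum in wt and 66.2% in PTX cells, RUNX1 46.4% and 29.1%, and RUNX2 1.85% and 4.70%. RUNX3 was thus the most abundant RUNX mRNA in each library apart from SW1736 wt, where RUNX1 was.

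The sum and the shares depend on the measure for RUNX1. Its read coverage per base, scaled to depth, was between 33.1% and 33.9% of its FPKM in every library, whereas that of the other members was between 89.6% and 100%. From coverage on the same scale, SW1736 wt had a sum of 12.0, SW1736-PTX 20.4, 8505C wt 13.4 and 8505C-PTX 30.5, so the near-equal sums of the SW1736 libraries held for FPKM only. The sum was then 0.523 times the CBFB level in SW1736 wt and 520 times in SW1736-PTX. RUNX1 made 53.0% of the sum in SW1736 wt, 7.41% in SW1736-PTX, 24.4% in 8505C wt and 13.2% in 8505C-PTX. RUNX3 then made 84.8%, 73.0% and 81.0% in the last 3 of these, so the most abundant RUNX gene of each library was the same by either measure. In SW1736-PTX the order of the lower genes was not, as RUNX2 made 7.76% by coverage against 7.41% for RUNX1. The change of RUNX1 between libraries depends little on the measure, since the proportion was nearly constant. The counting intervals of RUNX1 rest on reads taken from coverage, whereas its ratios are of FPKM, so the width of these intervals is uncertain.

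**Figure D2:**
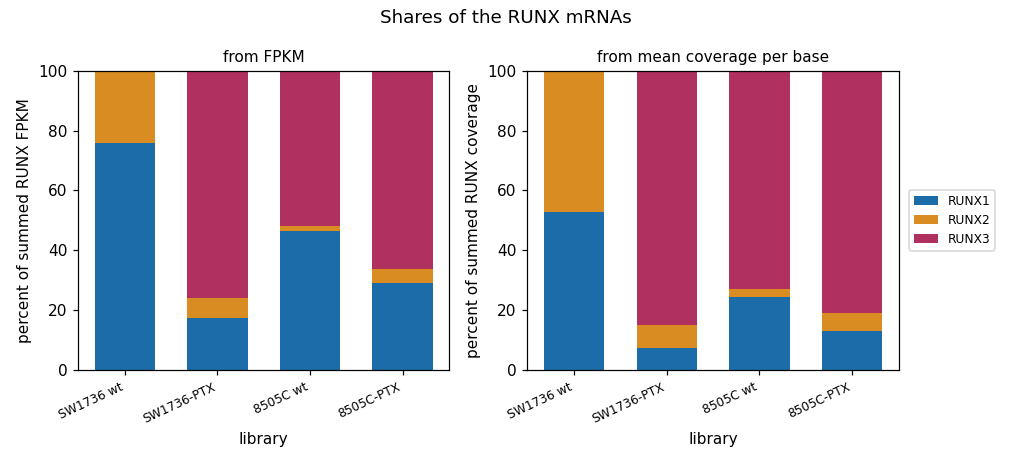
Percent of the summed RUNX1, RUNX2 and RUNX3 signal contributed by each gene in the 4 libraries, from FPKM (left) and from mean coverage per base (right). RUNX3 is absent from SW1736 wt and makes between 51.8% and 75.8% of the FPKM sum in the other libraries, while RUNX1 holds a smaller share by coverage than by FPKM in every library.

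CBFB did not stand alone on chromosome 16. Ordered by position, it was the first of 4 consecutive expressed genes that were above 0.5 FPKM in SW1736 wt and at no more than 5% of that level in each other library. These genes span 130.8 kb, from 67029147 to 67159909. C16orf70 (67110012 to 67148539), whose product acts in autophagy, had 7.84 FPKM in SW1736 wt and was listed at 0 in the other 3 libraries. B3GNT9 (67148102 to 67150999), a glycosyltransferase gene, was at 13.0 FPKM in SW1736 wt, at 0.0340 in SW1736-PTX and at 0 in both 8505C libraries. TRADD (67154186 to 67159909), the adaptor that couples the TNF receptor to NF-κB and cell death, had 11.5 FPKM in SW1736 wt and was listed at 0 in the others.

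The shared pattern of the 4 genes and their fall in SW1736 follow from the limits that define the run. Their sizes are a description, with log2 fold changes in SW1736 of -6.31 for C16orf70, -6.62 for B3GNT9 and -6.86 for TRADD. C16orf70 and B3GNT9 overlap by 438 bp on opposite strands, and whether counting used strand is not given in the sources used here, so reads in the overlap cannot be assigned. The genes just outside the run did not meet its limits in every library. FBXL8, an F-box gene that starts 79 bp beyond TRADD on the opposite strand, was at 3.27 FPKM in SW1736 wt, at 0.363 in SW1736-PTX, at 0.0159 in 8505C wt and at 0.224 in 8505C-PTX. These are 11.1%, 0.487% and 6.85% of its SW1736 wt level, outside the limit of 5% in both PTX libraries and inside it in 8505C wt.

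HSF4, a heat-shock transcription factor gene that overlaps FBXL8 by 790 bp, was at 2.73 FPKM in SW1736 wt, at 0.229 in SW1736-PTX, at 0.130 in 8505C wt and at 0.755 in 8505C-PTX. In 8505C wt this was 4.76% of its SW1736 wt level. It fell in SW1736 (-3.10) and rose in 8505C (1.90). On the other side, the carboxylesterase gene CES3 had 0.0278, 0.582, 0.785 and 4.36 FPKM in the same order of libraries, and rose in both lines (2.41 and 2.33). CES2, a carboxylesterase gene of the same cluster, was expressed throughout, with 8.37, 8.09, 6.76 and 10.7 FPKM and log2 fold changes of -0.05 and 0.65 that were not called. CES2 was thus the nearest of these genes with a similar level in all 4 libraries.

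The nearest genes listed above 0 in both 8505C libraries were CES4A, at 0.145 FPKM in wt and 0.0664 in PTX cells, and FBXL8. In 8505C wt the level of FBXL8 corresponds to 1.13 reads, under the floor of 3 reads, so this edge is uncertain there. The 150.2 kb between them, from 67009757 to 67159987, held no gene with FPKM above 0 in either 8505C library. No DNA was analysed, so the copy number and the sequence of this interval are unknown here.

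Within 1 Mb of CBFB, 68 further gene names were listed outside the run. In SW1736, 47 of them were compared, of which 5 rose (LINC00920, BEAN1, CES3, ZDHHC1 and RLTPR) and 3 fell (FBXL8, HSF4 and LCAT), with a median log2 fold change of -0.07, where 15.7% of all genes compared rose and 10.2% fell. In 8505C, 48 were compared, 10 rose and 1 fell (CDH5), with a median of 0.19, beside 15.0% and 5.89% of all genes. Between the untreated lines, 44 were compared, 4 were higher and 4 lower in 8505C wt, with a median of -0.11, beside 7.73% and 9.92%. These medians lie within 0.1 log2 units of those of all genes compared.

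**Figure D3:**
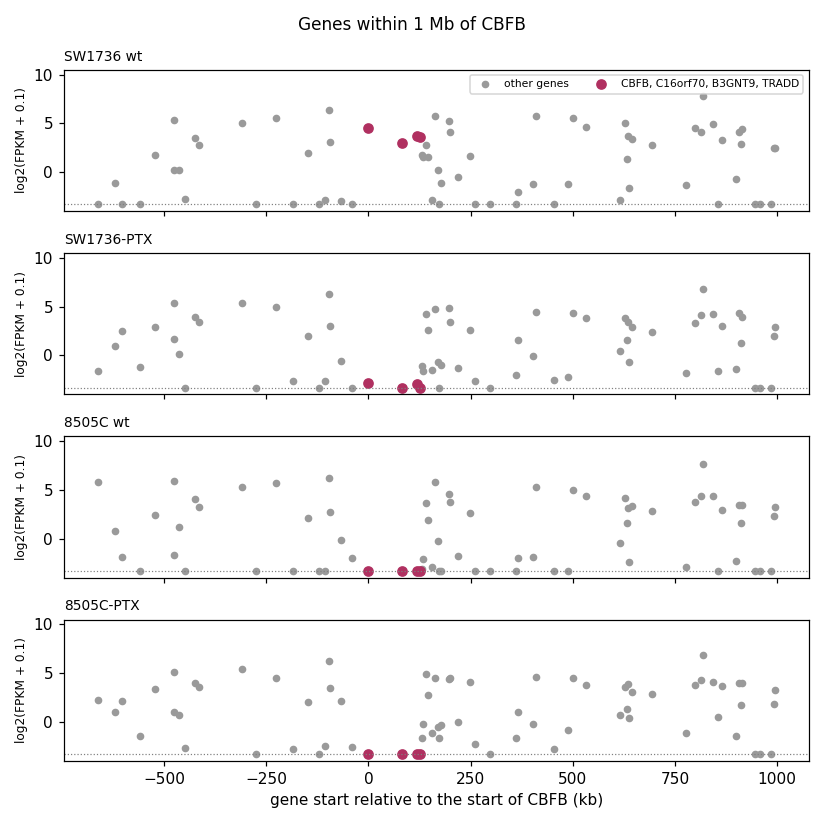
Level of every listed gene within 1 Mb of CBFB as log2(FPKM + 0.1), 1 panel per library, against the distance of its start from the start of CBFB in kb. CBFB, C16orf70, B3GNT9 and TRADD (larger points) lie among the expressed genes in SW1736 wt and at or near the dotted line of FPKM 0 in the other 3 libraries, while of the 47 other genes compared in SW1736, 5 rose and 3 fell.

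Over the autosomes and X, 201 of 14760 expressed entries (1.36%) had the pattern of CBFB, in 184 runs. Entries were counted here by gene name, chromosome and strand, unlike the 14692 genes counted by name alone. Of these runs 14 held at least 2 genes and 2 held at least 3, and the run of CBFB was the longest. The other run of 3 was MT1L, MT1E and MT1M, metallothionein genes that are also on chromosome 16. The opposite pattern, that of RUNX3, was found for 365 entries, in 324 runs of which 35 held at least 2 genes, 5 at least 3 and 1 of them 4. A run of 4 genes thus occurred once in either pattern.

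The trace of CBFB in SW1736-PTX was small, as the limit of 5% requires of every gene with this pattern. Of 89 genes above 5 FPKM in SW1736 wt and at no more than 5% elsewhere, 17 were listed at 0 in SW1736-PTX, 48 in 8505C wt and 36 in 8505C-PTX. The median remainder in SW1736-PTX was 0.540% of the SW1736 wt level, and 24 of the 89 genes, CBFB included, were at or below the 0.170% of CBFB. These genes were chosen on the same levels, so this only describes where CBFB lies among them. The source of these traces was not tested.

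For 3 of the 4 members, RefSeq promoters (GRCh38.p14, 250 bases before to 50 after the start site) could be matched, 5 windows in all. They were searched on both strands for TGTGGT, the core of the RUNX binding site, and for its variant TGCGGT. The first, distal promoters of RUNX2 and RUNX3 are shown because they held such letters, while the second promoters of both genes and the only RUNX1 window held none. That window has its start site at 34888699, inside RUNX1, whose 5' end on the minus strand is at 35049298. A promoter at that end was therefore not searched. Capitals mark TGTGGT and TGCGGT or their reverse complements.

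RUNX2, chr6:45328080-45328379, plus strand: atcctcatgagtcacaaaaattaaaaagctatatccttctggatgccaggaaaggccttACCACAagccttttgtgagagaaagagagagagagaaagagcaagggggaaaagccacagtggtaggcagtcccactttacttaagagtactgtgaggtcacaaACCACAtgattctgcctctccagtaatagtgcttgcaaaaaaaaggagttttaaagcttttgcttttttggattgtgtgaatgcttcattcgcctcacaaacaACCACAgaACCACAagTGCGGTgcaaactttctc

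RUNX3, chr1:24964961-24965260, minus strand: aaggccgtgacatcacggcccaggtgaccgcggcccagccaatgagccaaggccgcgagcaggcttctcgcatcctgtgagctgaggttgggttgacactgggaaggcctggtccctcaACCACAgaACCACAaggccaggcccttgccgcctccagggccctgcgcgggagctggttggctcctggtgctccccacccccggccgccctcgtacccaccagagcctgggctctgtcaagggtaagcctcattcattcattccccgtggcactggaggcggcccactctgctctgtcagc

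The RUNX2 window held 4 copies of TGTGGT and 1 of TGCGGT, and the RUNX3 window 2 copies of TGTGGT. Of all 35116 RefSeq promoters of this length, 13.1% held TGTGGT, 7.29% TGCGGT and 19.6% either. Both windows also shared the run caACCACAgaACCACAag of 18 bases, which lay downstream of the start site in RUNX2 and upstream of it in RUNX3, and no other promoter of the 35116 held it. The 35116 held no window at the 5' end of RUNX1. The matches in RUNX2 and RUNX3 describe letters and not occupied sites. They are shared by a pair of genes whose mRNA levels differed, RUNX2 being highest in the library in which RUNX3 was at 0. A promoter of CBFB is not shown here.

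The genes whose pattern over the 4 libraries was closest to each member were found by Euclidean distance on log2(FPKM + 0.1), centred per gene, over 14692 genes. Closest to CBFB was INA, a neuronal intermediate filament gene, at a distance of 0.0609, at 22.6 FPKM in SW1736 wt, at 0.0447 in SW1736-PTX and at 0 in both 8505C libraries. SLC38A5 (0.310), PAX8 (0.427), AP1M2 (0.487) and H1F0 (0.617) followed. PAX8, the thyroid transcription factor, thus marked the same library as CBFB.

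Closest to RUNX1 were DSCR3 (0.191), LOC101926941 (0.205), PEA15 (0.225), HIST2H3C (0.239) and TNIK (0.242). Closest to RUNX2 were PVRIG2P (0.139), SNAI2 (0.251), the Wnt receptor gene FZD7 (0.255), SH3PXD2A (0.301) and LRRC56 (0.318). Closest to RUNX3 were LAMA5 (0.332), a laminin chain, with 0.430, 129, 68.2 and 138 FPKM in the order of libraries used above, then LOC100505817 (0.371), PCSK1N (0.462), TNNC1 (0.488) and TMTC1 (0.489). Among the members, RUNX1 and RUNX2 were nearest to each other (2.34) and CBFB and RUNX3 were farthest apart (13.2).

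RUNX proteins act through cofactors, among them histone acetyltransferases and the Groucho repressors of the TLE family. Of 29 cofactor genes, 27 were compared in SW1736, of which 7 rose (TLE2, RUNX1T1, CEBPA, CEBPB, FLI1, GATA2 and FOS) and 2 fell (TLE1 and TLE3), with a median of -0.07, where 15.7% of all genes compared rose and 10.2% fell. In 8505C, 26 were compared, 2 rose (TLE2 and CEBPA) and 1 fell (ETS1), with a median of 0.50, beside 15.0% and 5.89% of all genes. Between the untreated lines 25 were compared, of which 5 were higher in 8505C wt (CEBPB, ETS1, FLI1, GATA2 and FOS) and 3 lower (TLE1, TLE3 and HDAC4), beside 7.73% and 9.92%. CEBPB, FLI1, GATA2, FOS, TLE1 and TLE3 were thus called the same way in SW1736 and between the untreated lines. These comparisons share the SW1736 wt library, and the share of all genes called the same way in both was not computed, so nothing is read from this overlap.

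TLE2 was at 0.0610 FPKM in SW1736 wt, at 8.45 in SW1736-PTX, at 0 in 8505C wt and at 5.00 in 8505C-PTX. Both PTX libraries stood above both untreated ones, and TLE2 rose in both lines (5.73 and 5.67). GATA2, a partner of RUNX1 in blood stem cells, had 0, 12.4, 10.9 and 20.6 FPKM in the same order, the pattern of RUNX3, and rose in SW1736 (6.97) but was not called in 8505C (0.91). CEBPA rose in both lines (1.68 and 1.79), from levels near 1 FPKM.

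Of 15 genes for proteins listed as modifiers of RUNX proteins, none rose in either line. In SW1736, 5 fell (SMURF1, SMURF2, CDK1, HIPK2 and SUV39H1), with a median of -0.71, and in 8505C 2 fell (SUV39H1 and CDC20), with a median of -0.61, where 10.2% and 5.89% of all genes compared fell and 15.7% and 15.0% rose. None of the 15 was called between the untreated lines, where 7.73% of all genes compared were higher and 9.92% lower in 8505C wt. SUV39H1, a histone methyltransferase gene, had 25.7, 3.90, 11.7 and 3.40 FPKM and was the member of the list that fell in both lines (-2.69 and -1.75). SMURF1 and SMURF2 encode ubiquitin ligases that direct RUNX2 to degradation, and CDK1 and CDC20 are also genes of the cell cycle.

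Of 28 known RUNX targets, most of them genes of bone and blood, 11 were compared in each line. In SW1736, 2 rose (TNFRSF11B and BCL2L11) and 3 fell (COL1A1, SNAI2 and CSF2), with a median of 0.27. In 8505C, 5 rose (SPP1, COL1A1, TNFRSF11B, SNAI2 and BCL2L11) and none fell, with a median of 1.44. Of all genes compared, 15.7% rose and 10.2% fell in SW1736, and 15.0% rose and 5.89% fell in 8505C. Between the untreated lines 11 were compared, none was higher in 8505C wt and 4 were lower (COL1A1, TNFRSF11B, SNAI2 and CSF2), beside 7.73% and 9.92%. The remaining targets were below 0.5 FPKM in both libraries of a pair. Of 23 RefSeq promoters of 16 of these target genes, 8 (34.8%) held TGTGGT or TGCGGT, beside the 19.6% of all promoters, a description of letters only.

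COL1A1, the type I collagen chain made in quantity by osteoblasts and fibroblasts, was at 153 FPKM in SW1736 wt, at 2.19 in SW1736-PTX, at 0.217 in 8505C wt and at 1.11 in 8505C-PTX. SNAI2, a repressor of epithelial genes, had 4.72, 1.05, 0.202 and 1.27 FPKM in the same order. Both followed the order of RUNX2 in having the highest level in SW1736 wt and the lowest in 8505C wt, and they fell in SW1736 (-6.07 and -2.07) and rose in 8505C (1.94 and 2.18).

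TNFRSF11B, which encodes the decoy receptor osteoprotegerin, had 1.23, 5.32, 0 and 2.54 FPKM and rose in both lines (2.03 and 4.72). BCL2L11, the proapoptotic gene BIM, had 3.85, 11.4, 2.57 and 8.81 FPKM and rose in both lines as well (1.54 and 1.74). Its change in SW1736 was only just beyond the limit of 1.5, and its calls with 1 added to FPKM were not computed. SPP1, osteopontin, reached 1.31 FPKM in 8505C-PTX from 0 in 8505C wt (3.82). The targets called in both lines were thus divided between shared and opposite directions.

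CBFβ also has partners outside the RUNX family, among them the APOBEC3 cytidine deaminases. Of 5 such genes, 1 fell in SW1736 (APOBEC3C, -2.56) and 2 rose in 8505C (APOBEC3F, 1.95, and APOBEC3G, 3.07), with medians of 0.37 and 1.33, beside 10.2% of all genes that fell in SW1736 and 15.0% that rose in 8505C. All 3 APOBEC3 genes of the list were called lower in 8505C wt than in SW1736 wt and none of the 5 higher, beside 9.92% and 7.73% of all genes compared. The APOBEC3 genes are close paralogs, so the split of reads between them is uncertain. Of 5 antisense or intronic RUNX transcripts sought by name, 2 were listed, RUNX1-IT1 and LINC01426, and both were too low to be compared.

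**Figure D4:**
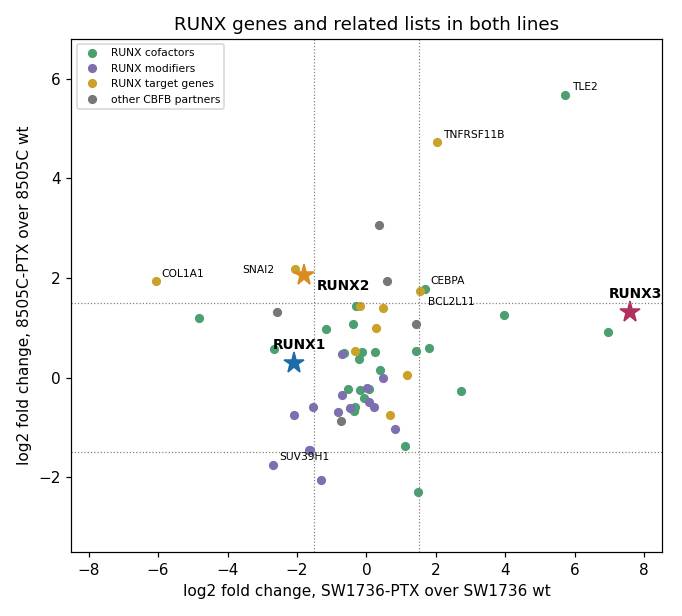
Log2 fold change in SW1736 (x axis) against that in 8505C (y axis) for the genes of 4 RUNX-related lists compared in both lines (points) and for RUNX1, RUNX2 and RUNX3 (stars). Dotted lines mark the limits of -1.5 and 1.5, and named points are the list genes called in both lines, of which COL1A1 and SNAI2 lie with RUNX2 in the upper left (lower in SW1736-PTX and higher in 8505C-PTX).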

How the data were processed

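The libraries (Universal Plus mRNA-Seq kit) were read as single ends of 75 bp. The authors masked adapters with Cutadapt, trimmed with ERNE, aligned to hg38 with STAR and quantified genes with StringTie. According to the authors, raw data were converted and demultiplexed with bcl2fastq 2.20, and the annotation is not given in the sources used here. The deposited tables of the authors give, per gene, mean coverage per base, FPKM and TPM, and hold no read counts, which left count models out.

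FPKM of rows with the same gene name were summed. The limits on FPKM and log2 fold change are those of the study, and the 0.1 added to FPKM was chosen here. Aligned bases were taken as the highest ratio of coverage to FPKM, and reads per gene as coverage times the MANE transcript length (GENCODE release 44) over the read length. Intervals are exact at 95%, and they and the floor of 3 reads cover counting error only. The code that makes the calls was checked on simulated libraries with planted changes. These held counting error only and no difference between cultures, so the check says nothing about the limit of 1 library per condition.

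The members and all gene lists were chosen with earlier results of these data known. Genes named in the text are the members, the run of CBFB with the 2 expressed genes on either side, the 5 genes closest to each member, list genes called in both lines and the 3 largest list changes per line. Genes listed beside a count, with SMURF1, SMURF2, CDK1, CDC20 and CES4A, and the marker genes were named in addition. Alternatives changed the pseudocount, unit, centring, rows per name and limits. Python 3.11.15, NumPy 2.4.6, pandas 2.3.3, SciPy 1.17.1 and matplotlib 3.10.9 were used. Immunoblot, viability and DHT experiments were not analysed here. One marker gene is not reported here.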

Additional observations from a re-analysis of the deposited data

Results flagged for a closer look

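Between SW1736 and 8505C, the members RUNX1 and RUNX2 had log2 fold changes of opposite sign with the same contrast of PTX to wt. RUNX1 had -2.08 in SW1736 and 0.30 in 8505C, the latter within the limits, and RUNX2 had -1.79 and 2.07. Among the genes of the lists and those beside the run of CBFB, COL1A1 (-6.07 and 1.94), SNAI2 (-2.07 and 2.18) and HSF4 (-3.10 and 1.90) were called in opposite directions. Their 8505C wt levels of 0.217, 0.202 and 0.130 FPKM were near the added 0.1, so the size of their rise in 8505C depends on it. Their calls with 1 added, and the share of all genes called in opposite directions, were not computed. List genes of opposite sign that were called in a single line, and genes chosen for their likeness to RUNX2, are not counted here. With 1 library per condition these differences between the lines were not tested.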

How the results depend on the processing

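Of 64 alternative values of the main results, 47 stayed within the 95% counting interval of a member's log2 fold change or within 1.5 times a number of genes, 17 moved and none changed direction. The change of CBFB in SW1736 was -8.87 with 0.01 added, -4.53 with 1 added and -8.14 on TPM, and that of RUNX3 was 10.92, 4.35 and 8.74, so the size of both was set by the scale. With 1 added, RUNX1 in SW1736 was -1.89, and RUNX2 was -1.40 in SW1736 and 1.09 in 8505C, both no longer called. Centring on the median of all genes gave 1.22 for RUNX3 in 8505C. The number of genes called was 3681 in SW1736, 2880 in 8505C and 2375 between the untreated lines. It was 2063, 1442 and 1183 with 1 added, 1701, 1609 and 896 with FPKM above 0.5 required in both libraries, and 1799 in 8505C beyond a log2 fold change of 2. Requiring both libraries also moved the share of higher calls in SW1736 from 60.7% to 50.0%. The run of CBFB held 4 genes, 5 with a limit of 20% (FBXL8 added), and 4 with SW1736-PTX left out, an alternative chosen after seeing the data, as were those of the wt libraries and of the RUNX shares. No paired analysis was possible because each group holds 1 library. Single libraries, low RUNX2 levels in 8505C and the unknown annotation limit the values.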
